A study of Rattus norvegicus with 10 samples.

Results

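Rat livers whose sample number is 4 or 5 were compared with livers numbered 1, 2 or 3. There were 4 such livers of 10 in all, 2 from Sprague-Dawley (SD) rats and 2 from Eisai hyperbilirubinemic rats (EHBR), against 3 of each strain with the lower numbers. The division is not in the sample labels. It was chosen from measured values, the TPM of all genes (transcript abundance corrected for length and scaled to a fixed total), and its leading genes were Dbp, Nr1d1, Arntl and Per3. The differences between the 2 sets are therefore given as a description, with no test, and they support nothing beyond the samples themselves.

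The study measured liver RNA of male rats 5 weeks old by RNA sequencing, 5 samples per strain, with no treatment named in the labels. EHBR is a mutant line derived from SD that lacks the bile canalicular export pump Mrp2, encoded by Abcc2, and has conjugated bilirubin in its blood. The labels give no time of collection, feeding state, day of extraction or sequencing run for any sample, so what the division follows was not tested. They do not say that each sample came from its own animal, so spread between samples may be partly technical.

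Each library held 13794181 to 19601572 reads assigned to genes, as recovered from the deposited values. The SD libraries numbered 4 and 5 were the deepest, at 19601572 and 19575837 reads against at most 17751935 in the other SD libraries, while the EHBR libraries numbered 4 and 5 held 17644759 and 13794181 reads against 15517498 to 17473605 in the other EHBR libraries. A gene was kept where 5 or more of the 10 samples reached 1 TPM, which left 11083 of 32883 genes. Abcc2 was at 199, 224, 271, 59.98 and 66.4 TPM in SD livers 1 to 5 and at 17.2, 17.6, 12.3, 11.9 and 10.1 TPM in EHBR livers 1 to 5. Every EHBR liver was below every SD liver, and within each strain livers 4 and 5 were below the rest. All 10 hepatocyte markers measured were kept. Together they held 155176 to 169611 TPM in SD livers 1 to 3 against 137753 to 141121 TPM in SD livers 4 and 5. In EHBR they held 171094 to 181997 against 158026 to 173586 TPM, which overlapped.

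The liver clock is a loop of transcription factors. Bmal1 (gene Arntl) pairs with Clock or Npas2 on E-box sequences and switches on the Per and Cry repressors, the nuclear receptors Nr1d1 and Nr1d2 (Rev-erb alpha and beta) and the D-box activators Dbp, Tef and Hlf. Rev-erbs in turn hold down Arntl, Npas2, Cry1 and Nfil3 through RORE sequences, so in rodent liver Arntl and the Rev-erb genes peak at roughly opposite times of day. The time of feeding also sets rhythms of metabolic and ribosomal protein genes in liver.

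The first 250 bases before the start of transcription are shown for 4 clock genes in which a search found one of these elements. They are RefSeq sequences of build GRCr8, searched on both strands, with motifs in capitals. The Arntl window holds a RORE 20 bases before the start. The Ciart window holds the E-box CACGTG 93, 35 and 21 bases before it, the Tef window holds an E-box at 198 bases, and the Per2 window holds the D-box TTATGTAA at 192 bases.
Arntl, chr1:176766078-176766327, plus strand: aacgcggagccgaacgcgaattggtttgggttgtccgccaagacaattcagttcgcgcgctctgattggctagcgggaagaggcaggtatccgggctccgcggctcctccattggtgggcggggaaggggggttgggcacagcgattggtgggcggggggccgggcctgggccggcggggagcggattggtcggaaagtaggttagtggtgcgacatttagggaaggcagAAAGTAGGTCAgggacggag
Ciart, chr2:186112247-186112496, minus strand: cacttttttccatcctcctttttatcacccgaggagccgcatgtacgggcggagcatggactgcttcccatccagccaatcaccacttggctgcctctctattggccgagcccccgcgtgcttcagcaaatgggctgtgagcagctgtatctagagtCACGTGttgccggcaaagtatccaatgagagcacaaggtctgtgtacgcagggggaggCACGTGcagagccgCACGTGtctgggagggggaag
Tef, chr7:115206577-115206826, plus strand: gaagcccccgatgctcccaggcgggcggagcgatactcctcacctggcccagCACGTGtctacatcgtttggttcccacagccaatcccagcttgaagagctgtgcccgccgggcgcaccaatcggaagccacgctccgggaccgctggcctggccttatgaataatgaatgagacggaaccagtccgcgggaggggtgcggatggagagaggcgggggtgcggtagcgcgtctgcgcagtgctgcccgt
Per2, chr9:99496994-99497243, minus strand: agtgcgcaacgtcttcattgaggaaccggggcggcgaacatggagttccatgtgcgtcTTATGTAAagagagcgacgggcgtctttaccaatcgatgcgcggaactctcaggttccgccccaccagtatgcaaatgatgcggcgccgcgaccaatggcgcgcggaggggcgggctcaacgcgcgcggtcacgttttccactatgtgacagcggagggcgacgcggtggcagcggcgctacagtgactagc

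The table of promoters held 15 of the 17 clock genes listed in the 2 arms, and Cry1 and Hlf are named only. Over windows from 250 bases before to 50 after the start, a RORE was found in 1 of 4 genes listed with the activating arm and in 0.356% of 33469 promoters. An E-box was found in 4 of 11 genes of the repressing arm and its outputs (Tef, Ciart, Bhlhe40 and Bhlhe41) and in 6.42% of all promoters. A D-box (TTATGTAA or TTACGTAA) was found in 1 of those 11 genes and in 1.01% of all promoters. No match overlapped another motif. The windows of Dbp, Nr1d1, Nr1d2, Per1, Per3 and Cry2 held no match of any of these motifs. These are matches of letters in a short window, and a gene without a match can hold the element elsewhere. Whether a match goes with the direction of a gene was not tested.

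The activating arm was represented by a single gene with a wide gap. Arntl was at 2.88, 0.606 and 2.04 TPM in SD livers 1 to 3 and at 10.6 and 11.1 TPM in SD livers 4 and 5. In EHBR it was at 0.660, 1.97 and 0.493 TPM in livers 1 to 3 and at 13.0 and 8.67 TPM in livers 4 and 5. All 4 livers numbered 4 and 5 were above all 6 others, and the means differed 5.88-fold in SD and 10.4-fold in EHBR. The fitted difference, numbers 4 and 5 minus 1 to 3 on the log2(TPM + 1) scale with strain as a covariate, was 2.36 (SE 0.32). The added 1 makes this scale understate the change of genes at a few TPM.

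Npas2, the partner that stands in for Clock, was at 0.363, 0.930 and 0.472 TPM in EHBR livers 1 to 3 and 3.87 and 4.22 in livers 4 and 5. In SD its values overlapped, at 2.42, 0.821 and 2.22 against 3.64 and 2.03 TPM. Nfil3, a repressor at D-boxes, was at 12.8, 14.3 and 26.1 against 24.5 and 29.2 TPM in SD and at 12.5, 11.8 and 8.61 against 20.1 and 19.6 TPM in EHBR. Its groups were apart in EHBR and overlapped in SD through liver 3. Cry1 was apart in SD (1.93, 2.86 and 1.55 against 6.66 and 6.28 TPM) and overlapped in EHBR (4.24, 3.19 and 4.36 against 5.12 and 3.84 TPM). Clock itself had a difference of 0.03 (SE 0.18) over both strains, with opposite signs within them. The difference was -0.34 in SD, where the groups overlapped. In EHBR it was 0.41, with livers 4 and 5 both above livers 1 to 3.

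The repressing arm and its outputs, a list without the repressors Cry1 and Nfil3, were lower in livers 4 and 5. Dbp, an activator at D-boxes and a direct output of the clock, was at 93.8, 152 and 121 TPM in SD livers 1 to 3 and at 4.42 and 4.06 TPM in livers 4 and 5. In EHBR it was at 186, 146 and 173 TPM against 3.26 and 7.51 TPM. The highest liver numbered 4 or 5 was far below the lowest of the others, and the mean was 0.0347 of that of livers 1 to 3 in SD and 0.0320 in EHBR. Dbp had the lowest fitted difference of the genes named here, -4.67 (SE 0.23).

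Nr1d1 was at 76.5, 61.4 and 92.0 TPM in SD livers 1 to 3 and at 4.48 and 2.44 TPM in livers 4 and 5. In EHBR it was at 74.0, 69.7 and 50.1 TPM against 14.9 and 17.5 TPM. The groups did not overlap in either strain, and EHBR livers 4 and 5 kept 0.251 of the mean of livers 1 to 3 where SD livers kept 0.0451. Its relative Nr1d2 was at 15.8, 22.3 and 22.7 against 4.81 and 2.34 TPM in SD and at 24.9, 24.8 and 21.7 against 5.99 and 9.12 TPM in EHBR.

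Per3, a member of the period gene family, was at 1.46, 4.84 and 3.48 against 0.581 and 0.360 TPM in SD and at 8.23, 6.28 and 7.34 against 0.762 and 0.659 TPM in EHBR. Per1, a core repressor that also answers acute signals, was at 1.52, 6.95 and 4.21 against 0.411 and 0.924 TPM in SD and at 10.9, 10.2 and 11.3 against 1.85 and 2.104 TPM in EHBR. Per2, its close relative, had a smaller gap, at 3.27, 5.62 and 2.65 against 1.47 and 1.90 TPM in SD and at 6.77, 6.24 and 6.66 against 1.02 and 2.04 TPM in EHBR. All 3 period genes were lower in livers 4 and 5 of both strains without overlap, with fitted differences of -1.86 (SE 0.28), -1.75 (SE 0.31) and -1.21 (SE 0.24).

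Ciart, a repressor of the Clock and Bmal1 pair, was at 1.18, 1.97 and 0.929 against 0.125 and 0 TPM in SD and at 4.82, 4.22 and 8.23 against 0.253 and 0.194 TPM in EHBR. Tef was at 18.8, 30.5 and 24.7 against 7.40 and 7.48 TPM in SD and at 38.2, 34.6 and 36.2 against 8.75 and 10.02 TPM in EHBR. Both were lower without overlap, Tef by a mean ratio of 0.302 in SD and 0.258 in EHBR. Hlf and Cry2 differed less, by -0.96 (SE 0.20) and -0.85 (SE 0.13), and Bhlhe40, a repressor that binds E-boxes, overlapped between the groups in EHBR.

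**Figure D1:**
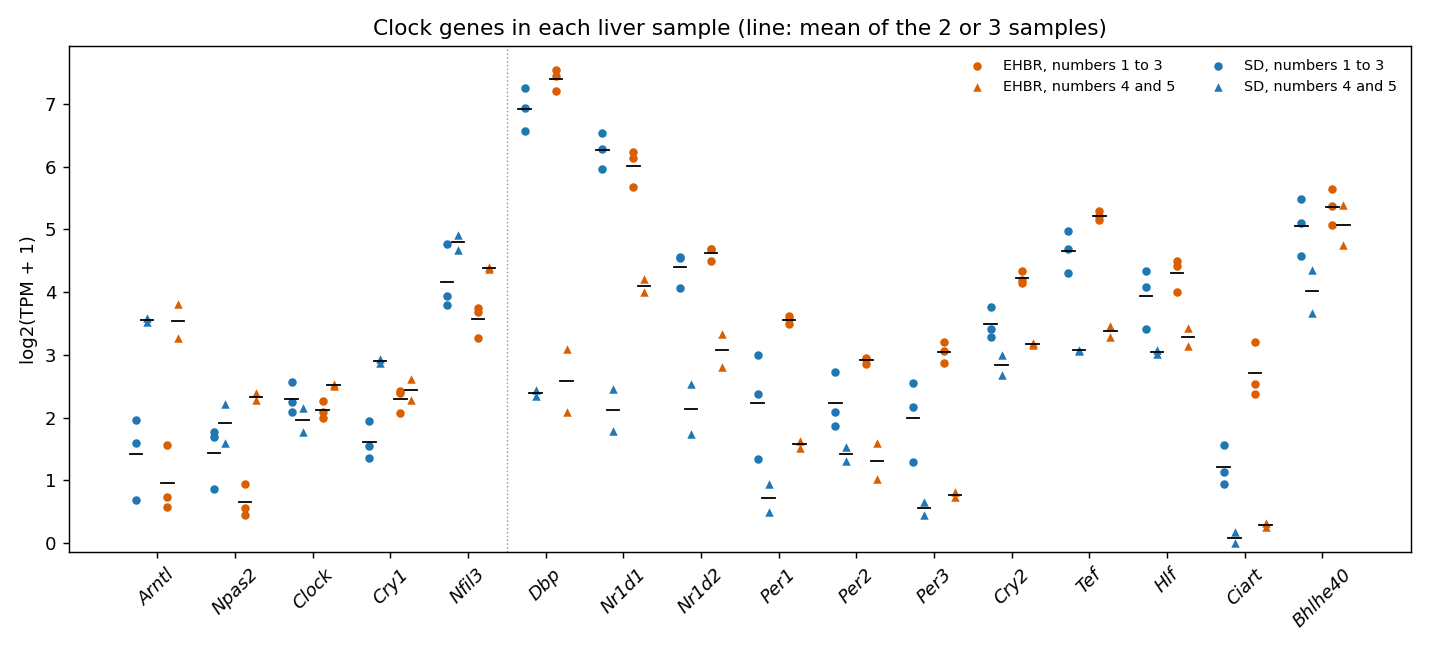
Level of 16 clock genes in each liver, on the log2(TPM + 1) scale, for SD (blue) and EHBR (orange), with circles for numbers 1 to 3, triangles for numbers 4 and 5 and a line at each mean. Arntl lies higher in the triangles of both strains, and Dbp, Nr1d1, Nr1d2, the Per genes, Tef and Ciart lie lower.

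A gene was said to stand apart where, within SD and within EHBR, livers 4 and 5 were both above or both below all 3 others, in the same direction, with a fitted difference of at least 1.5-fold. By this rule 183 of 11083 genes (1.65%) were higher and 1044 (9.42%) were lower in livers 4 and 5. The division was chosen from these same values, so nothing is read from those counts. Counts given below for gene lists are to be read beside these shares of 1.65% higher and 9.42% lower. Among genes without overlap, Cic, with a difference of -0.5853, was just inside the fold limit of 0.5850 on the log2 scale, and R3hdm1, with -0.5849, was just outside. With a 2-fold limit, 46 genes were higher and 145 lower, and with no fold limit 608 and 2829.

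The median gene itself was lower by TPM in livers 4 and 5, with a difference of -0.22 over both strains, -0.32 in SD and -0.12 in EHBR. TPM values in a sample add to a fixed sum. With the values rescaled without mitochondrially encoded and ribosomal protein genes the median was -0.16. The same median was -0.12 in FPKM, -0.01 in upper-quartile FPKM and 0.07 with every sample shifted to a common median (median centring). The split of 183 higher and 1044 lower genes moved with the scale, to 272 and 520 in FPKM, 526 and 247 in upper-quartile FPKM, 323 and 307 after quantile normalization and 688 and 195 after median centring. Gene lists are therefore given below with their median minus that of all genes, called the relative median.

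The livers of each strain fell on both sides of the division to different degrees. The median absolute log2 difference between 2 SD livers on the same side was 0.174 to 0.209, and across the division it was 0.299 to 0.407. In EHBR it was 0.146 to 0.172 on the same side and 0.210 to 0.262 across. Across genes, the SD and EHBR differences had a Pearson correlation of 0.47, and 8179 of 11083 genes (73.8%) had the same sign in both. The signs were taken without centring. The median gene was below 0 in both strains and 2869 genes had a fitted difference above 0, so the shared sign includes that shift. Genes are not independent replicates, and these figures describe the values that chose the division.

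Of the 12 listed genes of the repressing arm and its outputs, 11 were kept and 10 stood apart, all lower, with a median difference of -1.75 and a relative median of -1.53. Bhlhe40 was the exception, and Bhlhe41 was too low to be kept. The list of the activating arm holds Arntl, Clock and Npas2 with Cry1 and Nfil3, repressors under RORE control. Of these 5 genes 1 stood apart, Arntl. The relative median of the list, 0.94, was the value of Nfil3, against 2.58 for Arntl, 1.29 for Npas2 and 0.25 for Clock. After median centring the counts were 6 of 11 lower and 4 of 5 higher. Per1, Per2, Cry2 and Hlf no longer stood apart there. Per1, Per2 and Cry2 also did not with the length trend removed. After quantile normalization Per2, Cry2 and Hlf did not, and Hlf did not in upper-quartile FPKM. Arntl stood apart in all 20 other settings tried, as did Dbp, Nr1d1, Nr1d2 and Tef, and Per3 and Ciart did in all 19 settings that kept them. These settings rework the values that chose the division, and Dbp, Nr1d1, Arntl and Per3 were its leading genes. They are therefore no independent support for it.

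Genes that the clock is known to drive in liver were mostly lower as well. Of 14 kept, 10 stood apart, all lower, with a relative median of -0.87, and the counts were 7 lower and 1 higher in upper-quartile FPKM and 4 lower and 1 higher after median centring. Cyp7a1, the rate-limiting enzyme of bile acid synthesis, was at 70.1, 163 and 73.8 against 8.53 and 38.4 TPM in SD and at 42.4, 35.2 and 36.7 against 17.8 and 7.88 TPM in EHBR. Upp2, a uridine phosphorylase, was at 8.23, 18.8 and 10.9 against 0.0863 and 0.786 TPM in SD and at 1.36, 1.498 and 1.75 against 0.245 and 0.0446 TPM in EHBR. Both genes were lower without overlap in either strain.

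Usp2, a deubiquitinase with rhythmic expression, was at 5.16, 14.8 and 4.59 against 2.15 and 3.35 TPM in SD and at 16.8, 18.9 and 27.2 against 2.17 and 3.12 TPM in EHBR. Por, the reductase that passes electrons to cytochromes P450, was at 113, 232 and 144 against 90.1 and 94.5 TPM in SD and at 240, 192 and 290 against 94.9 and 63.8 TPM in EHBR. In both genes livers 4 and 5 of the 2 strains lay close together while livers 1 to 3 were higher in EHBR than in SD on average.

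Fasting and gluconeogenic genes moved in both directions. Of 24 kept, 7 were lower and 1 higher, with a relative median of -0.33, and the counts were 4 lower and 2 higher in upper-quartile FPKM. Sds, which breaks serine down to pyruvate for glucose synthesis, was at 56.3, 65.7 and 87.0 against 3.47 and 4.34 TPM in SD and at 137, 144 and 307 against 10.7 and 24.96 TPM in EHBR. Tat, which starts tyrosine breakdown, was at 445, 537 and 388 against 140 and 225 TPM in SD and at 706, 882 and 1294 against 265 and 330 TPM in EHBR. These were the lower genes with the widest gaps in the list, with differences of -3.61 (SE 0.33) and -1.50 (SE 0.22).

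The other direction held Fgf21, a liver hormone of fasting and of amino acid shortage. It was at 10.5, 2.72 and 13.4 against 138 and 39.4 TPM in SD and at 22.4, 13.8 and 7.46 against 107 and 148 TPM in EHBR. The lowest liver numbered 4 or 5 was above the highest of the others in both strains, and the difference, 3.14 (SE 0.54), was the highest of all genes named here. Other textbook genes of gluconeogenesis were not apart: G6pc, the last step of glucose release, had a difference of 0.09 (SE 0.37) and Fbp1 one of 0.11 (SE 0.09). These genes were picked after their values were seen, as was Pck1, the entry enzyme of gluconeogenesis, which stood apart at -1.38 (SE 0.21).

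Among 25 genes of the fed state, 1 was higher and 1 lower, with a relative median of 0.24, and the counts were 3 higher and 0 lower in upper-quartile FPKM and 5 and 0 after median centring. Me1, which makes NADPH for fat synthesis, was at 44.4, 58.8 and 54.7 against 126 and 188 TPM in SD and at 188, 194 and 154 against 405 and 271 TPM in EHBR. Slc2a2, the main glucose transporter of liver, had a difference of -0.66 (SE 0.09). It was at 188, 252 and 189 against 127 and 130 TPM in SD and at 281, 270 and 283 against 172 and 186 TPM in EHBR. Fasn and Acly, picked after their values were seen as central enzymes of fat synthesis, did not stand apart, with differences of 0.66 (SE 0.33) and 0.25 (SE 0.31).

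Fatty acid oxidation genes and targets of the receptor PPAR alpha included 7 that stood apart higher and 2 lower of 29 kept, with a relative median of 0.42 (12 higher and 1 lower after median centring). Angptl4, which inhibits lipoprotein lipase, was at 18.7, 13.3 and 30.4 against 60.3 and 46.5 TPM in SD and at 27.9, 22.3 and 16.5 against 77.8 and 47.9 TPM in EHBR. Cyp4a2, an omega-hydroxylase, was at 431, 25.1 and 604 against 912 and 703 TPM in SD and at 11.6, 10.05 and 10.2 against 22.2 and 19.1 TPM in EHBR, with SD liver 2 far below the other SD livers. Ppara, the receptor itself, was the other way, at 6.23, 10.1 and 13.6 against 2.55 and 1.72 TPM in SD and at 15.4, 17.8 and 13.3 against 4.34 and 4.05 TPM in EHBR. The receptor and the 7 higher genes of its list thus lay on opposite sides.

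Of 25 cholesterol synthesis genes, 3 were lower and 1 higher (12% and 4%, beside 9.42% and 1.65% of all genes). Stard4, a sterol carrier, had a difference of -0.86 (SE 0.30), and Pmvk, a kinase of the mevalonate pathway, one of 0.82 (SE 0.15). In upper-quartile FPKM the counts were 1 lower and 2 higher, and after median centring 1 and 3. The lower count was 1 without SD library 5 and 5 without EHBR library 3 or 4.

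**Figure D2:**
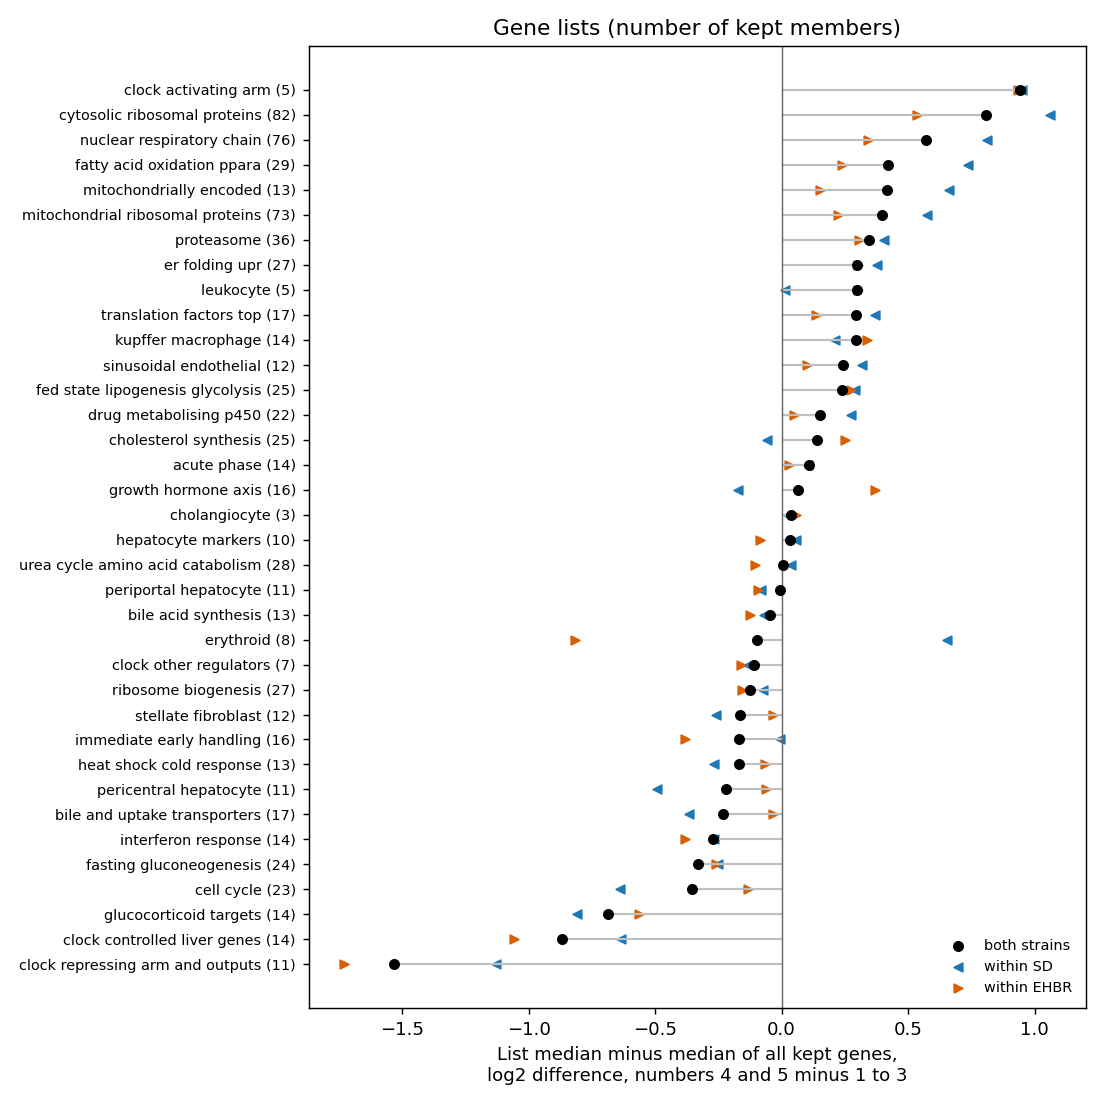
Relative median of each gene list (log2, numbers 4 and 5 minus 1 to 3, minus the median of all kept genes) for both strains together (black), SD (blue) and EHBR (orange), with the number of kept genes in brackets. The repressing clock arm and its outputs lie lowest at -1.53. The list of the activating arm, with Cry1 and Nfil3, and the ribosomal proteins lie highest at 0.94 and 0.81.

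Of 82 kept cytosolic ribosomal protein genes, 42 stood apart, all higher, with a median difference of 0.59 and a relative median of 0.81. Their summed share of TPM was 2.86%, 2.76% and 2.53% in SD livers 1 to 3 and 4.38% and 4.90% in livers 4 and 5. In EHBR it was 2.73%, 2.61% and 2.71% against 3.78% and 3.42%. The 4 livers numbered 4 and 5 were above the other 6, and SD livers 4 and 5 were above the EHBR ones. The number higher was 29 after quantile normalization, 31 with the length trend removed, 66 after median centring and 27 without SD library 5, and 0 were lower in any of these.

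Rps27a, a small-subunit protein made as a fusion with ubiquitin, had the widest gap, at 415, 413 and 355 against 1537 and 1349 TPM in SD and at 416, 348 and 392 against 1090 and 825 TPM in EHBR. Rpl22l1, a paralog of Rpl22, was at 111, 74.3 and 96.0 against 274 and 314 TPM in SD and at 131, 108 and 106 against 230 and 179 TPM in EHBR. Rps12 had a difference of 1.02 (SE 0.17). Ribosomal protein genes have many near-identical processed copies, so how reads were shared among them is uncertain. The lowest member was Rpl8, picked after its value was seen, at -0.92, which did not stand apart.

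By TPM 5.88% of translation factors and 11.1% of ribosome biogenesis genes stood apart lower, beside 9.42% of all genes. Of 17 translation factors, 1 stood apart, Eif4b, a helper of the mRNA helicase, lower at 62.7, 79.4 and 84.6 against 40.3 and 31.6 TPM in SD and at 90.9, 89.2 and 83.4 against 47.3 and 53.6 TPM in EHBR. In upper-quartile FPKM and after median centring 3 translation factors were higher and 1 lower. Of 27 ribosome biogenesis genes, 3 were lower: Ddx21, a nucleolar helicase, at -0.75 (SE 0.08), Nolc1, a nucleolar phosphoprotein, at -0.62 (SE 0.08), and Polr1b, a subunit of RNA polymerase I, at -0.59 (SE 0.09). In upper-quartile FPKM and after median centring 0 of 27 stood apart, and without EHBR library 1 the count was 1.

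Mitochondrially encoded transcripts held a larger share in SD livers 4 and 5. The 13 protein genes of the mitochondrial genome held 12.05%, 12.03% and 11.8% of TPM in SD livers 1 to 3 and 15.9% and 15.5% in livers 4 and 5. In EHBR they held 14.0%, 12.9% and 13.1% against 13.9% and 14.7%, which overlapped. Mt-co3, a subunit of cytochrome c oxidase, was the 1 gene that stood apart, at 12418, 15521 and 14361 against 24237 and 25364 TPM in SD and at 14750, 14202 and 13809 against 18008 and 18802 TPM in EHBR. All 13 had a difference above 0, from 0.04 to 0.59. Mt-co3 no longer stood apart without SD library 1, 3, 4 or 5, and up to 3 of the 13 did when an EHBR library was left out.

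Of 76 nuclear genes of the respiratory chain, 4 stood apart, all higher, with a relative median of 0.57, and 40 were higher in upper-quartile FPKM and 49 after median centring. The count was 0 without SD library 5, 2 without SD library 3 or 4 and 10 without EHBR library 5. Ndufv2, of complex I, was at 228, 233 and 190 against 346 and 407 TPM in SD and at 271, 259 and 248 against 393 and 350 TPM in EHBR. Atp5mc1, of ATP synthase, differed by 0.65 (SE 0.14) and Uqcrh, of complex III, by 0.62 (SE 0.11); the fourth gene, picked after its value was seen, was Atp5po, also of ATP synthase, at 0.60 (SE 0.11). Of 73 mitochondrial ribosomal protein genes, 1 stood apart, Mrpl48, at 0.59 (SE 0.09), and 23 did after median centring. Of 36 proteasome genes 0 stood apart (4 higher in upper-quartile FPKM and 6 after median centring), and the most abundant, Psmb4, had a difference of 0.45 (SE 0.08).

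**Figure D3:**
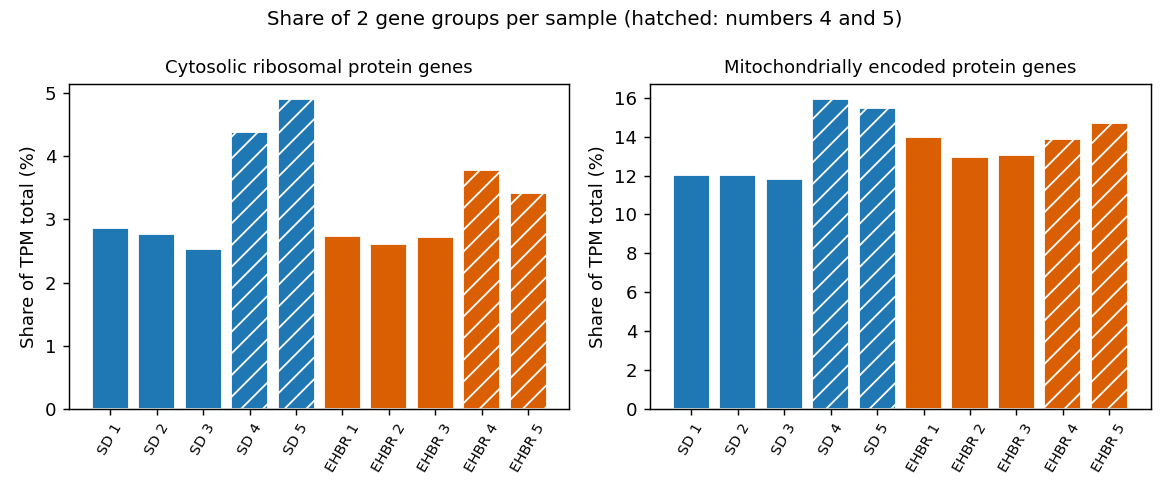
Share of TPM, in percent, held by cytosolic ribosomal protein genes and by the 13 mitochondrially encoded protein genes in each of the 10 livers, by strain and number. The ribosomal share is 3.42% to 4.90% in livers 4 and 5 and 2.53% to 2.86% in livers 1 to 3.

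Longer transcripts were lower in livers 4 and 5. Length here is the transcript length that the authors' FPKM values imply for each gene, recovered for 11044 of the 11083 genes. The Spearman correlation across genes between length and the difference was -0.37 in TPM and -0.39 in FPKM, -0.39 within SD and -0.25 within EHBR. The 601 genes under 500 bases had a median difference of 0.03, the 2615 genes of 2000 bases or more but under 3000 -0.24 and the 614 genes of 6000 bases or more -0.41. Of the shortest genes 8.49% stood apart higher and 3.66% lower, and of the longest 0 and 19.7%. Without ribosomal and respiratory genes the correlation was -0.35 over 10800 genes.

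The 60 ribosomal protein genes under 1000 bases had a median difference of 0.59 and the 22 of 1000 bases or more 0.56. With the length trend removed from each sample, the relative median of the list was 0.52, that of the nuclear respiratory genes 0.31 and that of the mitochondrially encoded genes 0.19. By the same step the relative median of the repressing clock arm and its outputs went from -1.53 to -1.41. That of the list of the activating arm went from 0.94 to 1.003. The part of length in these differences was not tested.

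**Figure D4:**
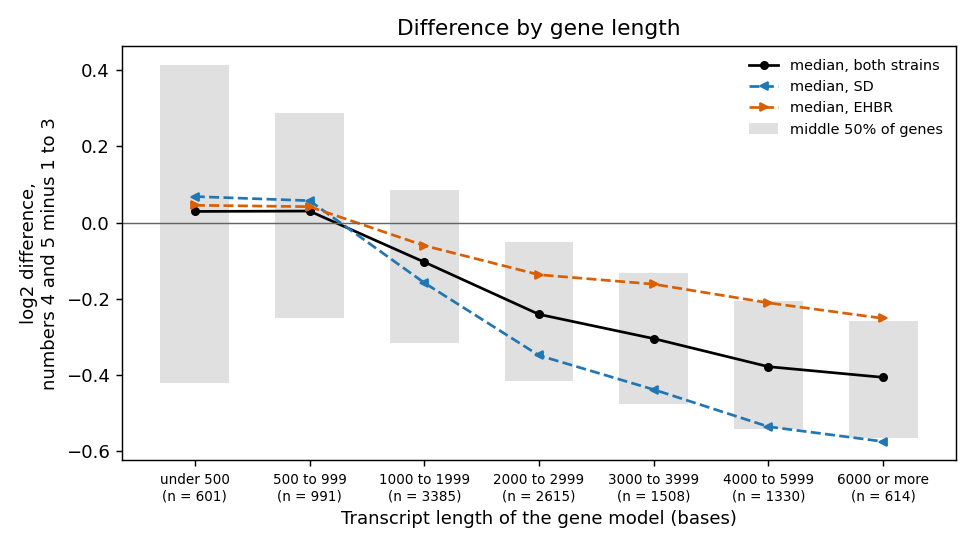
Median log2 difference (numbers 4 and 5 minus 1 to 3) by transcript length in bases, for both strains (black), SD (blue) and EHBR (orange), with grey bars for the middle 50% of genes. The median goes from 0.03 under 500 bases to -0.41 at 6000 bases or more, and SD lies below EHBR in the 5 longer classes.

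Of 14 kept genes that answer glucocorticoids, 6 stood apart, all lower, with a relative median of -0.69 (3 of 14 in upper-quartile FPKM and 2 after median centring). Mt2A, a metal-binding metallothionein, was at 314, 585 and 2423 against 306 and 10.9 TPM in SD and at 877, 336 and 357 against 26.03 and 29.9 TPM in EHBR. SD liver 4 was almost at the level of SD liver 1, while the other 3 livers numbered 4 and 5 were far below. Of 16 immediate early genes, which also answer handling of tissue, 5 were lower, led by Zfp36, an mRNA-destabilising protein, at -1.31 (SE 0.26), and after median centring 2 were lower and 1 higher (3 lower without SD library 3).

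Protein folding genes lay on both sides. Of 13 heat shock genes, 4 were lower and 1 higher, against 2 and 2 in upper-quartile FPKM and 1 and 2 after median centring. The higher gene was Hspe1, the mitochondrial co-chaperonin, at 267, 258 and 208 against 570 and 574 TPM in SD and at 230, 290 and 304 against 610 and 512 TPM in EHBR. The lower genes, picked after their values were seen, were the cytosolic chaperone Hspa8 and its partners Dnajb1, Hsph1 and Bag3, with differences of -1.03 (SE 0.21), -0.86 (SE 0.15), -0.81 (SE 0.18) and -0.62 (SE 0.18). Of 27 genes of endoplasmic reticulum folding, 5 were lower and 1 higher, Chac1, a glutathione-degrading enzyme, at 1.53 (SE 0.36), and after median centring 1 was lower and 7 higher.

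Of 28 genes of the urea cycle and amino acid breakdown, 5 (17.9%) were lower, against 8 without SD library 1 and 2 after median centring. Sds and Tat were first among them, and the list had a relative median of 0.00. Of 17 bile and uptake transporters, 4 were lower, Abcc2 among them (2 without SD library 5, 1 in upper-quartile FPKM and 0 after median centring). Of 22 drug-metabolising P450 genes and their partners, 2 were lower (9.09%, beside 9.42% of all genes), against 0 lower and 1 higher after median centring. The 2 lower genes were Por and, picked after its value was seen, Cyp2c12, at -0.92 (SE 0.32). Of 14 interferon response genes 0 stood apart, and the most abundant, Ifi27, had a difference of -0.05 (SE 0.15).

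Hamp, the iron hormone hepcidin, was at 2894, 3359 and 3718 against 1250 and 868 TPM in SD and at 240, 201 and 466 against 0.978 and 20.2 TPM in EHBR. It was the only gene of 14 acute phase genes to stand apart. Hsd17b2, which inactivates sex steroids, was at 579, 830 and 782 against 110 and 95.4 TPM in SD and at 550, 457 and 439 against 104 and 109 TPM in EHBR. Livers 4 and 5 of both strains lay at almost the same level for Hsd17b2, with a difference of -2.48 (SE 0.17).

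The remaining higher genes with the widest gaps had varied roles. Tubb2a, a beta tubulin, was at 10.6, 9.31 and 5.83 against 32.7 and 45.4 TPM in SD and at 3.75, 7.44 and 5.88 against 56.8 and 38.5 TPM in EHBR. Gsta3, a glutathione transferase, was at 16.7, 24.7 and 10.7 against 101 and 106 TPM in SD and at 168, 166 and 144 against 314 and 286 TPM in EHBR. Cldn1, a tight junction protein, differed by 1.56 (SE 0.20), Acot5, an acyl-CoA thioesterase, by 1.80 (SE 0.61) and Tor3a by 1.75 (SE 0.37). Tma7 had a difference of 2.95 (SE 0.92), but SD liver 1, at 2.43 TPM, lay with the EHBR livers 1 to 3 and not with SD livers 2 and 3, at 50.6 and 42.4 TPM, and the gene has near-identical copies.

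The remaining lower genes named by rule were Cdkn3, a phosphatase of the cell cycle, at -2.08 (SE 0.45), Tsen34, a tRNA splicing endonuclease subunit, at -1.98 (SE 0.49), and a gene annotated as U6, a small nuclear RNA, at -2.51 (SE 0.65). The deposited FPKM list U6 at 0 in all 10 samples, so its TPM difference has no counterpart there. Ccnd1, which drives entry into the cell cycle, was at 49.4, 67.6 and 47.1 against 12.01 and 11.2 TPM in SD and at 22.01, 19.0 and 16.2 against 7.47 and 7.17 TPM in EHBR. It was 1 of 4 cell cycle genes of 23 that stood apart, all lower. After median centring 1 did, and without EHBR libraries 1, 3 or 5 the counts were 8, 7 and 11. Bcl6, a repressor in the growth hormone axis, differed by -1.56 (SE 0.32), and Gsk3b, a kinase that acts on clock proteins, by -0.89 (SE 0.15).

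Marker genes of other liver cells were measured beside these groups. In bulk tissue fewer cells of a type and less RNA per cell cannot be told apart. Of 14 Kupffer cell markers and 12 sinusoidal endothelial markers 0 stood apart, and C1qa and Lyve1 had differences of 0.25 (SE 0.21) and -0.24 (SE 0.12). Of 12 stellate cell markers, 4 were lower (0 lower and 1 higher in upper-quartile FPKM, 1 lower without SD library 5), with summed levels of 366 to 390 TPM in SD livers 1 to 3 against 234 to 280 in livers 4 and 5, and 327 to 352 against 296 to 311 TPM in EHBR. Markers of neighbouring tissue summed to 12.6 to 14.9 against 38.2 to 52.1 TPM in SD and to 19.0 to 27.2 against 22.1 to 33.3 TPM in EHBR, with 6 of 13 at 0 in every sample. The most abundant of them, Fabp2, an intestinal fatty acid carrier, was at 9.22, 12.4 and 10.4 against 36.2 and 51.3 TPM in SD and at 25.6, 18.1 and 16.5 against 32.0 and 19.1 TPM in EHBR, where the groups overlapped. The part of these cells in the results above was not tested.

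Among hepatocyte markers Hnf4a was the only 1 of 10 that stood apart, at -0.72 (SE 0.17), and 0 did after median centring. Of 11 markers of hepatocytes near the central vein, 3 were lower, Cyp7a1, Slc1a2 and Glul, and of 11 markers of hepatocytes near the portal vein 3 were lower, Sds, Pck1 and Arg1. Slc1a2, Glul and Arg1 were picked after their values were seen, with differences of -1.42 (SE 0.21), -1.17 (SE 0.17) and -0.65 (SE 0.14). In each of the 2 zone lists 27.3% of genes were lower, beside 9.42% of all genes. Cyp7a1 and Sds are also members of lists given above. Whether liver zones had a part in the division was not tested.

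Whether the division differed between the strains is another contrast than the one that chose it, and it was tested with limma on log2(TPM + 1) as the interaction of strain and number set. Of 11083 genes, 30 (0.271%) had an adjusted p under 0.05, against 2252 at an unadjusted p under 0.05. Choosing the division from these data can make the spread within the sets too small, and with it these p-values. The difference pointed in opposite directions in SD and EHBR for 21 of the 30, and it was larger in size in SD for 20. Over all genes 73.8% had the same sign in both strains. Their median absolute difference, centred on the median of each strain, was 0.302 in SD and 0.193 in EHBR. The interaction was fitted without centring, and the median gene differed by -0.32 in SD and -0.12 in EHBR. The strain gap was smaller in livers 4 and 5 than in livers 1 to 3 for 16.

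Nr1d1 was the 1 gene of the 2 clock arms among the 30. Its difference was -4.14 in SD and -1.92 in EHBR, an interaction of 2.23 (SE 0.34, limma adjusted p = 0.0413). The adjusted p was above 0.05 in 16 of the 24 other settings tried, among them FPKM (0.0742), no filter (0.0890) and the length trend removed (0.0558), and 8 of 10 fits with 1 library left out. For Dbp the interaction was -0.28 (SE 0.39, limma adjusted p = 0.711) and for Arntl 0.43 (SE 0.55, limma adjusted p = 0.682), which does not show that the strains were alike. Nr1d1, Dbp and Arntl were leading genes of the division, so the limit on these p-values given above applies to them in particular.

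Major urinary protein genes, which encode small lipid carriers secreted by male liver, were among the 30, and Mup5 had the smallest adjusted p. It was at 1773, 1974 and 1856 against 476 and 480 TPM in SD and at 8.82, 7.61 and 7.25 against 41.7 and 66.5 TPM in EHBR. It was lower in SD livers 4 and 5 and higher in EHBR livers 4 and 5, an interaction of 4.56 (SE 0.24, limma adjusted p = 6.9e-05). Mup4 and LOC259244, in the same region of chromosome 5, had interactions of 3.64 and 4.73 (limma adjusted p = 0.00147 and 0.000874). Mup genes include near-identical copies, so the reads of one may be counted for another, and Mup4 lost its call in FPKM, with an interaction of 1.66 (limma adjusted p = 0.150). LOC100360095, on chromosome 8 and outside that region, had an interaction of 4.59 (limma adjusted p = 0.00102).

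Aldh1a7, an aldehyde dehydrogenase, was at 9.47, 13.5 and 16.2 against 0.771 and 0.282 TPM in SD and at 60.6, 56.0 and 49.7 against 93.1 and 70.4 TPM in EHBR. Aox3, an aldehyde oxidase, was at 14.3, 17.7 and 15.9 against 2.45 and 1.59 TPM in SD and at 0.752, 0.667 and 0.737 against 0.855 and 0.664 TPM in EHBR. Aldh1a7 was lower in SD livers 4 and 5 and higher in EHBR livers 4 and 5, while Aox3 was lower in SD and overlapped in EHBR, with interactions of 3.74 (SE 0.32, limma adjusted p = 0.00147) and 2.53 (SE 0.23, limma adjusted p = 0.00190). Each kept an adjusted p under 0.05 in all 24 other settings tried.

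The globin gene Hba-a1, which marks red blood cells, went the other way. It was at 698, 806 and 543 against 881 and 843 TPM in SD and at 1582, 1766 and 1552 against 652 and 857 TPM in EHBR, an interaction of -1.48 (SE 0.23, limma adjusted p = 0.0431) that lost its call in 14 of 24 other settings. The summed level of 12 erythroid markers was 1010 to 1587 against 1598 to 2076 TPM in SD and 3074 to 3414 against 1375 to 1696 TPM in EHBR. Scd, which makes monounsaturated fatty acids, Glul, which makes glutamine, and Cyp17a1, an enzyme of steroid synthesis, were also among the 30 and are named here after their values were seen. Their interactions were 1.87 (SE 0.30), 0.84 (SE 0.13) and -2.35 (SE 0.35), with limma adjusted p of 0.0438, 0.0388 and 0.0388.

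**Figure D5:**
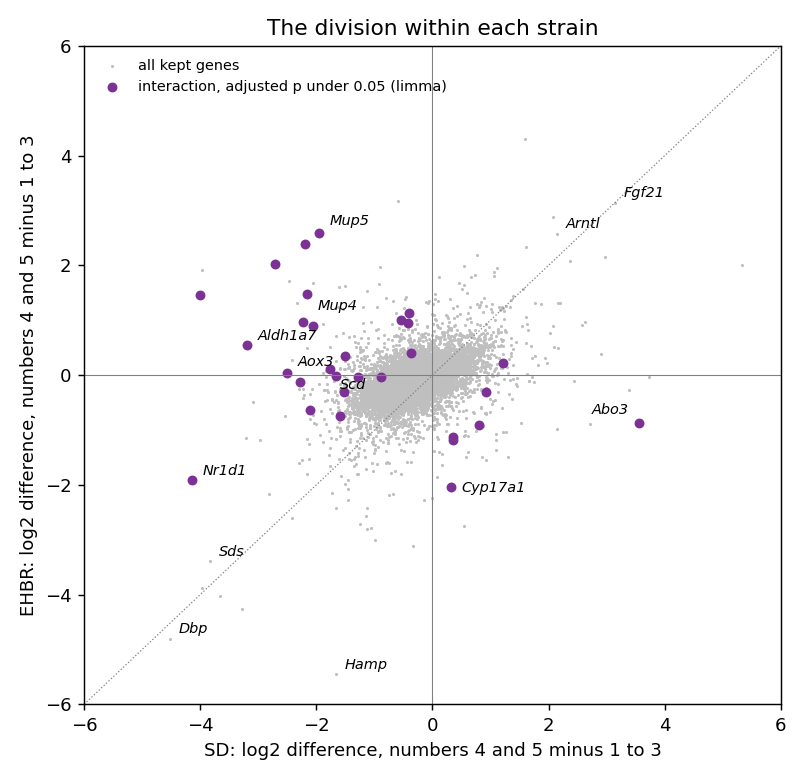
Difference between numbers 4 and 5 and numbers 1 to 3 (log2) within SD (horizontal axis) and within EHBR (vertical axis) for each of 11083 genes (grey), with the 30 genes of limma adjusted p under 0.05 for the interaction in purple and the line of equal differences dotted. Dbp, Sds, Fgf21 and Arntl lie near the line of equal differences, and Mup5, Mup4 and Aldh1a7 lie in the corner that is lower in SD and higher in EHBR.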

How the data were processed

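RNA was extracted from liver with TRIzol, selected for poly(A) and made into directional libraries, per the labels' protocols. HISAT2 2.1.0, featureCounts 1.6.3, FastQC 0.11.7, Trimmomatic 0.38 and the build rn6 appear without settings in the submitters' processing notes. No label states whether reads were counted by strand, so overlapping genes on opposite strands and near-identical copies (Mup, Hba, Tma7 and ribosomal protein genes) are uncertain.

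The authors deposited TPM, FPKM and upper-quartile FPKM for 32883 genes. The authors' TPM were not a rescaling of their FPKM: 473 of 8131 well-covered genes (50 reads or more in each sample) were over 0.3 (log2) apart in at least 1 sample, and no source used here gives the cause. The unit of the main analysis was TPM. Whole reads and gene lengths were recovered from the upper-quartile FPKM the authors deposited, within a tolerance of 0.0002 reads; at least 99.98% of each library's reads were recovered.

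Genes that reached 1 TPM in 5 or more of 10 samples were fitted with limma 3.58.1 (R 4.3.3) as log2(TPM + 1) on strain and number set. The difference between sets carries no p. The interaction was tested with the trend option and Benjamini-Hochberg adjustment over 11083 genes at 0.05, two-sided, and the fit was tested on simulated data. Strain and number were read from the titles.

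The number sets, the 38 gene lists and the alternatives were chosen with earlier results of these data known. Of 815 list symbols, 741 were kept and 41 were not matched. Named were all kept genes of the 2 clock arms, the 10 highest and 10 lowest genes standing apart with a mean of 5 TPM or more in the higher set and no placeholder symbol, up to 3 genes standing apart of each other program list and 1 of every remaining list (the most abundant where none stood apart), up to 6 interaction genes with the smallest adjusted p, and Abcc2; some of these genes are not reported here. Alternatives were FPKM, upper-quartile FPKM, other pseudocounts (0.1, 5) and filters, quantile normalization, median centring, rescaling without mitochondrially encoded and ribosomal protein genes, removal of the length trend, other variance settings of limma, voom on recovered reads, a replicate block and leaving out each library.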

Additional observations from a re-analysis of the deposited data

Results flagged for a closer look

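Of 160 groups of 5 samples examined, 2 held a sample far from the other 4, where chance gives about 1 in 20. In SD, Tma7 in liver 1 lay at a gap of 0.888 of the group's range from the nearest other liver, above the critical value of 0.71. In SD, Cyp4a2 in liver 2 lay at a gap of 0.790 of the range.

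For 11 named genes the limma interaction, the EHBR difference minus the SD difference, had an adjusted p under 0.05 by TPM. Some of these calls, among them those of Nr1d1, Hba-a1 and Mup4, were lost in other settings. The interaction was 2.23 for Nr1d1 and -1.48 for Hba-a1. On chromosome 5 it was 4.56 for Mup5, 4.73 for LOC259244 and 3.64 for Mup4, and on chromosome 8 it was 4.59 for LOC100360095. It was 3.74 for Aldh1a7 and 2.53 for Aox3. For the genes named after their values were seen it was 1.87 for Scd, 0.84 for Glul and -2.35 for Cyp17a1.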

How the results depend on the processing

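Genes standing apart, 183 higher and 1044 lower by TPM, were 520 lower in FPKM, 526 higher and 247 lower in upper-quartile FPKM, 322 lower with a pseudocount of 5, 323 and 307 after quantile normalization, 688 and 195 after median centring, 303 and 296 with the length trend removed, and 46 and 145 at a 2-fold limit. Leaving out 1 library gave 162 to 260 higher and 824 to 1402 lower. Named genes standing apart kept their sign in every setting except U6, at 0 in FPKM and 0 in upper-quartile FPKM.

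Interaction calls, 30, were 14 in FPKM, 19 in upper-quartile FPKM, 52 with a pseudocount of 0.1, 13 with no filter, 55 with a mean of at least 5 TPM, 47 with a robust variance fit, 19 with sample weights and 12 to 52 without 1 library: 52 without SD library 2, 15 without SD library 5 or EHBR library 2, and 12 without EHBR library 1, 3 or 4. Fits without a library numbered 4 or 5 leave 1 liver in that set, assumed to vary like the rest. With a replicate block the count was 11, and 7 with the block and the length trend removed. The labels do not say what a shared number marks, same-number deviations correlated at 0.07 to 0.29, and 3 of 5 SD livers correlated best with their own number, so the numbers were not taken as pairs. For the difference between number sets no paired analysis was possible because the sets are made of whole numbers.

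Some relative list medians moved with the setting. The list of the activating arm was 1.16 and 0.58 with pseudocounts of 0.1 and 5 and 0.86 to 1.14 without 1 library. With a mean of at least 5 TPM it was 1.73, from the 2 genes left of 5, Arntl and Nfil3. The repressing arm and its outputs were at -1.84 and -0.71 with pseudocounts of 0.1 and 5. The fasting list was -0.45 with no filter, -0.15 with a mean of at least 5 TPM, -0.17 with the length trend removed and -0.44 to -0.26 without 1 library. Fatty acid oxidation was 0.19 after quantile normalization. With a pseudocount of 5, no filter, quantile normalization and the length trend removed, ribosomal proteins were 0.69, 0.69, 0.53 and 0.52 (0.69 to 0.87 without 1 library), mitochondrially encoded genes 0.33, 0.29, 0.20 and 0.19 (0.35 to 0.50), and nuclear respiratory genes 0.47, 0.45, 0.26 and 0.31 (0.49 to 0.64). The acute phase list, 0.11 by TPM, was -0.12 after quantile normalization. With a mean of at least 5 TPM the leukocyte list had no gene left. The causes were not tested. Values near 1 TPM are the least precise, and 2 livers per set and strain limit what can be shown.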
